A study of Mus musculus with 21 samples.

Results

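The region described here is the flank of the Oct4 promoter that carries the H2-Q genes of the mouse major histocompatibility complex (MHC). It was read by 4C-seq, which reports how often other DNA is ligated to 1 chosen fragment, the viewpoint. Members were chosen by coordinate alone, as the positions from 35.403 to 35.634 Mb on chromosome 17 (mm9) in the libraries of the Oct4 promoter. There are 232 such positions in each of 2 libraries, hence 464 of the 802 deposited for the Oct4 locus and of the 14771 deposited for the 21 libraries of the study. One library was cut with NlaIII and then Csp6I, the other with DpnII and then Csp6I, and both came from IB10/E14 mouse embryonic stem (ES) cells. The cells were grown with leukemia inhibitory factor in serum and conditioned medium, and fixed with 2% formaldehyde for 10 minutes. Each group is 1 library of 1 cell line, with no replicate, so every difference below is a description without a test. The labels do not say whether both libraries came from 1 culture. E14 cells come from another mouse strain than the C57BL/6J genome of mm9.

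Oct4, encoded by Pou5f1, is a transcription factor required for pluripotency, and its gene lies within the mouse MHC. H2-Q genes encode nonclassical MHC class I proteins, relatives of the classical molecules such as H2-D1 that present peptides to T cells. They arose by duplication, so neighbouring copies resemble each other. In a 4C profile, contact falls steeply with distance from the viewpoint, and a specific contact appears as a local rise above that fall.

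In the RefSeq gene table (GRCm38.p6), 17 genes lie between H2-D1 and Pou5f1. Of these, 8 are H2-Q genes, in the order H2-Q1, H2-Q2, H2-Q3, H2-Q4, H2-Q5, H2-Q6, H2-Q7 and H2-Q10 towards Pou5f1. The table marks 6 as protein-coding and 2, H2-Q3 and H2-Q5, as pseudogenes. The remainder are 5 further pseudogenes and 4 long noncoding RNA genes, of which Gm32362 stands between H2-Q10 and Pou5f1. H2-Q7 encodes the Qa-2 antigen, and H2-Q10 a class I protein secreted by the liver. On the other flank Tcf19, Cchcr1 and Psors1c2 follow Pou5f1. This build differs from that of the signal files, so it gives names and order here, and no contact was assigned to a gene.

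The sequences below show the viewpoint promoter, the promoter of the nearest H2-Q gene, and a pair of neighbouring H2-Q copies. Each is the 250 bases before the gene's start in RefSeq (GRCm38.p6, plus strand of chromosome 17), from a table that held 5 of the 8 H2-Q genes. These coordinates cannot be set against the mm9 positions of the signal. Capitals mark the cutting sites searched for, which are palindromes and so read the same on both strands: GATC for DpnII, CATG for NlaIII and GTAC for Csp6I. No base fell in more than 1 site.
Pou5f1 (chr17:35505782-35506031): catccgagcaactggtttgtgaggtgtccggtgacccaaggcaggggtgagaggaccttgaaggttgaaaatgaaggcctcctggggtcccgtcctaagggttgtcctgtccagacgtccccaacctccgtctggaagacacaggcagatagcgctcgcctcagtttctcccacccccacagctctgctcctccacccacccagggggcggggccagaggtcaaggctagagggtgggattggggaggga
H2-Q10 (chr17:35469839-35470088): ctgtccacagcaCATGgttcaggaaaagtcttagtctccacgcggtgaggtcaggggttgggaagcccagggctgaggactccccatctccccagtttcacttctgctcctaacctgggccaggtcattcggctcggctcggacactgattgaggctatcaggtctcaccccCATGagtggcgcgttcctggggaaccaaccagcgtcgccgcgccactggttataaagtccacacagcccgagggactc
H2-Q7 (chr17:35438905-35439154): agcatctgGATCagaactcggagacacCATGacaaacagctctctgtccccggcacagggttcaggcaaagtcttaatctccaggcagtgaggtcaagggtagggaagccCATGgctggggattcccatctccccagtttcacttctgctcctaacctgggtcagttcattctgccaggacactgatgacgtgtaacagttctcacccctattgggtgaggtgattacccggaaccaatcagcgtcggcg
H2-Q6 (chr17:35424600-35424849): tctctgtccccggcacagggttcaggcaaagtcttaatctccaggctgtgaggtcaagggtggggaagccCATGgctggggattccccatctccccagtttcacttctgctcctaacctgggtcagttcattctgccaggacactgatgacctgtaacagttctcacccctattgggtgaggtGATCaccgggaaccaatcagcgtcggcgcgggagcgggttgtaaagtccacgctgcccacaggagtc

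The Pou5f1 window held no site of any of the 3 enzymes. H2-Q10 held 2 NlaIII sites, H2-Q7 held 1 DpnII and 2 NlaIII sites, and H2-Q6 held 1 DpnII and 1 NlaIII site. Among all 32851 promoter windows of that length in the table, 41.9% held a DpnII site, 53.9% an NlaIII site and 31.5% a Csp6I site. The H2-Q6 and H2-Q7 windows matched at 205 of 210 aligned bases, or 97.6%. Over the 10 pairs among the 5 H2-Q promoters, identity in the aligned bases had a median of 84.8% and ran from 74.6% to 97.6%. Against Pou5f1 the 5 H2-Q promoters had 72.7% to 80.3%, but over only 71 to 206 aligned bases, and 53.7% to 63.6% with gaps counted. The H2-Q pairs aligned over 185 to 243 bases, so identity in aligned bases rests on unlike lengths in these comparisons. By this measure the lowest H2-Q pairs fell within the range against Pou5f1. These lowest pairs all held H2-Q2, and with gaps counted the lowest was 54.3%. No pairs of unrelated promoters were aligned, so whether Pou5f1 is more like H2-Q promoters than such pairs was not tested. Of the 221 words of 30 bases in the H2-Q6 window, 61 also occur in the promoter of another gene, all of them H2-Q genes, and the count for H2-Q7 was the same. A read lying wholly within such an identical stretch cannot be assigned to 1 copy by sequence. The words were counted anywhere in the window and not at cutting sites. Whether reads of these libraries fall in them was not examined. The sources used here do not say how the authors treated such reads. The Pou5f1 window shared 177 of its 221 words with the promoter window of Gm32362, its neighbour, and with no other gene. Words were searched on both strands, and whether these neighbouring windows overlap on the chromosome was not checked.

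Signals were taken to be scaled to the viewpoint, since middle values of exactly 1 occur near it in both libraries. The authors smoothed them over running windows, and the 5 kb window is used unless another is named. Each window has a middle, a higher and a lower value. On this scale the H2-Q side ran up to 0.546 with NlaIII/Csp6I, with a median of 0.0119 and a mean of 0.0330. With DpnII/Csp6I it ran up to 0.646, with a median of 0.0138 and a mean of 0.0336. With each enzyme pair the mean stood over the median, and a short stretch near Oct4 carried much of the signal. Just inside the ends chosen by the rule, the signal was 0.0117 and 0.155 with NlaIII/Csp6I, and 0.0210 and 0.270 with DpnII/Csp6I, at 35.403 and 35.634 Mb. Just outside, at 35.402 and 35.635 Mb, it was 0.0117 and 0.414 with NlaIII/Csp6I, and 0.0210 and 0.220 with DpnII/Csp6I. Sequencing depth is unknown, so no counting interval is given.

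**Figure D1:**
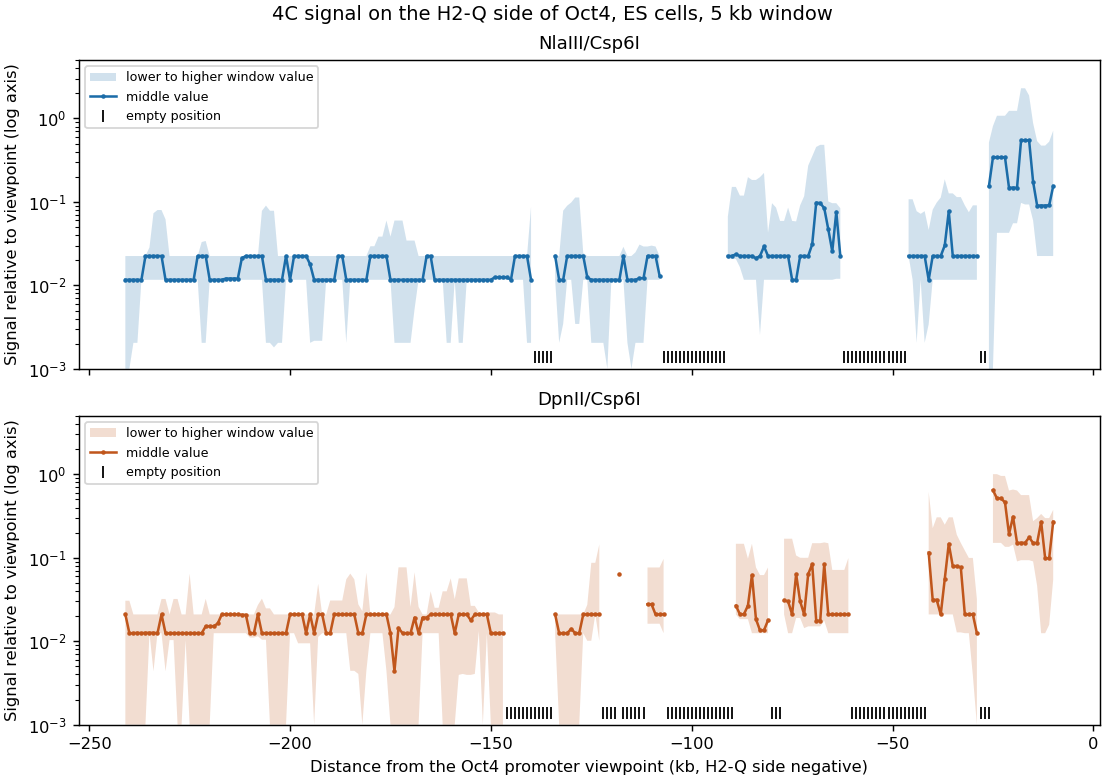
Signal of each position of the H2-Q side (log axis, relative to the viewpoint) against distance from the Oct4 promoter viewpoint in kb, for NlaIII/Csp6I (above) and DpnII/Csp6I (below). Lines are middle values of the 5 kb window, bands span the lower to the higher window value (drawn no lower than the axis), and ticks mark empty positions. Both profiles have their highest values, 0.546 with NlaIII/Csp6I and 0.646 with DpnII/Csp6I, within 25 kb of the viewpoint and lie flat beyond 150 kb.

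The strongest contact of the H2-Q side was a block from 35.619 to 35.629 Mb, 15 to 25 kb from the viewpoint. With NlaIII/Csp6I, the signal was 0.342 at 35.619 to 35.622 Mb, 0.148 at 35.623 to 35.625 Mb, 0.546 at 35.626 to 35.628 Mb and 0.174 at 35.629 Mb. With DpnII/Csp6I, it was 0.646 at 35.619 Mb, 0.515 at 35.620 and 35.621 Mb, 0.461 at 35.622 Mb, and between 0.151 and 0.311 over 35.623 to 35.629 Mb. DpnII/Csp6I was thus highest at the edge away from Oct4, and NlaIII/Csp6I on a plateau of 3 positions nearer to Oct4, where DpnII/Csp6I averaged 0.159. The 11 positions of the block are 4.74% of the H2-Q side. They held 47.3% of its signal with NlaIII/Csp6I and 43.9% with DpnII/Csp6I. The block was picked for its signal, so these shares are a description. Over it the mean signal was 0.329 with NlaIII/Csp6I, between mean lower and higher values of 0.0568 and 1.37, and 0.311 with DpnII/Csp6I, between 0.121 and 0.711.

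A signal of at least 0.1 (a limit chosen after the data were seen, like that on O/E below) was reached at 13 of 232 positions (5.60%) with NlaIII/Csp6I. Over all 377 positions of that library lying 10 kb or more from the viewpoint, on both flanks, the share was 3.98%. With DpnII/Csp6I it was reached at 16 positions (6.90%), against 6.63% over all positions of that library. On the Tcf19 side 2 of 144 positions (1.39%) reached it with NlaIII/Csp6I and 9 (6.25%) with DpnII/Csp6I. The H2-Q side reaches 241 kb and the Tcf19 side 153 kb, so these shares cover unlike distances. The 92 H2-Q positions beyond 150 kb reached only 0.0225 with NlaIII/Csp6I and 0.0210 with DpnII/Csp6I, which lowers the H2-Q share. Both libraries reached 0.1 at 12 positions, which were 92.3% of the NlaIII/Csp6I positions and 75.0% of the DpnII/Csp6I positions. These 12 were the 11 of the block and 35.634 Mb, and they were all such positions of the locus (3.18% of 377). Outside them, DpnII/Csp6I alone reached 0.115 at 35.603 Mb and 0.147 at 35.608 Mb, where NlaIII/Csp6I had 0.0117 and 0.0771.

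**Figure D2:**
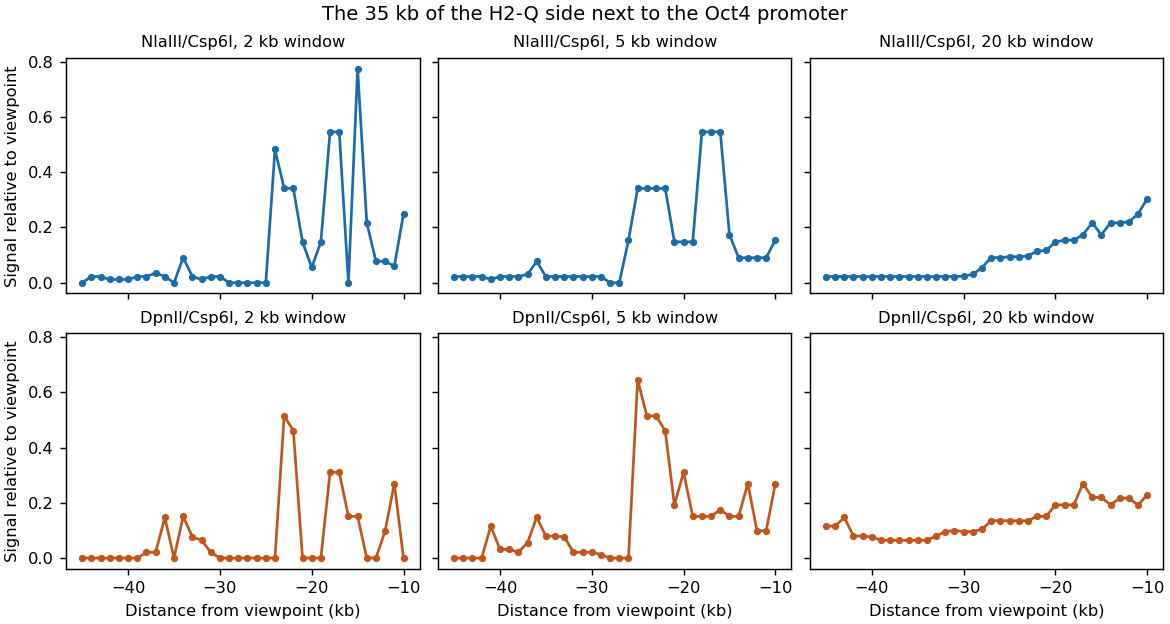
Signal relative to the viewpoint (linear axes) from 45 to 10 kb on the H2-Q side, for NlaIII/Csp6I (upper row) and DpnII/Csp6I (lower row), in the 2, 5 and 20 kb windows from left to right. Points are the middle values at steps of 1 kb. The 2 kb window splits the block into separate peaks of up to 0.775 with NlaIII/Csp6I and 0.515 with DpnII/Csp6I. In the 20 kb window the block reaches 0.217 with NlaIII/Csp6I, which rises further to 0.304 at 10 kb, and 0.270 with DpnII/Csp6I. At 10 kb DpnII/Csp6I has 0.229 in that window.

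Narrower smoothing broke the block into separate peaks. In the 2 kb window it peaked at 0.775 with NlaIII/Csp6I, at 35.629 Mb, and at 0.515 with DpnII/Csp6I, at 35.621 Mb. At that scale 2 of its 11 positions were empty with NlaIII/Csp6I, and 5 with DpnII/Csp6I. In the 20 kb window the block ran between 0.0940 and 0.217 with NlaIII/Csp6I, and between 0.135 and 0.270 with DpnII/Csp6I. With DpnII/Csp6I its highest value there was at 35.627 Mb, between 0.193 at 35.626 Mb and 0.220 at 35.628 Mb. Nearer to the viewpoint, DpnII/Csp6I had 0.220 at 35.629 Mb and, past the block, 0.229 at 35.634 Mb. With NlaIII/Csp6I the signal in that window rose further past the block, to 0.249 at 35.633 Mb and 0.304 at 35.634 Mb. The block was thus no separate peak with NlaIII/Csp6I at 20 kb. With DpnII/Csp6I it exceeded the 0.229 of 35.634 Mb only at 35.627 Mb.

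Distance alone gives high values near a viewpoint, so each position was also set against a decay that falls with distance, fitted to both flanks of the same library. Observed over expected (O/E) is the mean signal within 5 kb of a position over the mean of that decay. To each of them 10% of the mean signal of that library was added. O/E was at least 1.5 at 22 of 232 positions (9.48%) with NlaIII/Csp6I, against 5.84% of all positions, and at 19 (8.19%) with DpnII/Csp6I, against 8.22% of all positions. For DpnII/Csp6I the share on the H2-Q side was close to that of the whole locus, but the flanks cover unlike distances. The H2-Q side reaches 241 kb and the Tcf19 side 153 kb, so the farthest decay rests on the H2-Q side alone. O/E on its 92 positions beyond 150 kb reached only 1.23 with NlaIII/Csp6I and 1.39 with DpnII/Csp6I, which lowers its share. On the Tcf19 side 0 of 144 positions passed with NlaIII/Csp6I and 12 (8.33%) with DpnII/Csp6I. Both libraries passed at 13 positions of the H2-Q side, and at no other position of the locus (3.45% of 377). The NlaIII/Csp6I positions formed 1 stretch of 12, from 35.616 to 35.627 Mb, and 1 of 10, from 35.571 to 35.580 Mb. The DpnII/Csp6I positions formed a stretch of 11 from 35.614 to 35.624 Mb and a pair of stretches of 4, starting at 35.605 Mb and at 35.572 Mb.

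The highest maximum was at 35.623 Mb with NlaIII/Csp6I, 21 kb from the viewpoint, with O/E 2.25, where DpnII/Csp6I had 1.74. With DpnII/Csp6I it was at 35.617 Mb, 27 kb away, with O/E 2.14, where NlaIII/Csp6I had 1.83. The signal at 35.617 Mb itself was empty in both libraries, so its O/E is that of its neighbours, of which 3 of 11 positions were empty with DpnII/Csp6I and 2 with NlaIII/Csp6I. The positions averaged for either maximum overlap the block of strong signal. With the decay fitted to the H2-Q side alone, their log2 O/E was 0.39 with NlaIII/Csp6I and 0.66 with DpnII/Csp6I, against 1.17 with NlaIII/Csp6I and 1.10 with DpnII/Csp6I when both flanks were used.

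In the 5 kb window a second rise above the decay lay 68 to 72 kb from the viewpoint. Its maximum was 35.576 Mb with NlaIII/Csp6I, with O/E 2.15, where DpnII/Csp6I had 1.37. With DpnII/Csp6I it was 35.572 Mb, with O/E 1.59, where NlaIII/Csp6I had 1.77. The signal at 35.575, 35.576 and 35.577 Mb was 0.0980, 0.0965 and 0.0842 with NlaIII/Csp6I, and 0.0177, 0.0177 and 0.0839 with DpnII/Csp6I. NlaIII/Csp6I was thus high at all 3 positions and DpnII/Csp6I at 1. DpnII/Csp6I was also high on the far side of the dip, with 0.0636 at 35.573 Mb and 0.0839 at 35.574 Mb, where NlaIII/Csp6I had 0.0225 and 0.0310. Other windows did not keep it in both libraries. In the 2 kb window O/E at these maxima was 1.84 with NlaIII/Csp6I and 0.813 with DpnII/Csp6I, and in the 20 kb window 0.999 with NlaIII/Csp6I and 1.24 with DpnII/Csp6I. A further maximum of NlaIII/Csp6I, at 35.603 Mb, had O/E 1.10, with 1.19 in DpnII/Csp6I. In NlaIII/Csp6I it was 0.720 in the 2 kb window and 0.886 in the 20 kb window, so it stood below the decay there. At the same position DpnII/Csp6I had 0.881 in the 2 kb window and 1.56 in the 20 kb window.

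In zones of 25 kb, the H2-Q side stood above the Tcf19 side in the zone nearest to Oct4. At 10 to 25 kb its mean signal was 0.253 with NlaIII/Csp6I, against 0.0598 on the Tcf19 side, a ratio of 4.24. With DpnII/Csp6I it was 0.244 on the H2-Q side, against 0.0996 on the Tcf19 side, a ratio of 2.45. In the 2 kb window that ratio was 3.57 with NlaIII/Csp6I and 1.53 with DpnII/Csp6I, and in the 20 kb window 3.06 with NlaIII/Csp6I and 1.80 with DpnII/Csp6I. At 25 to 50 kb the direction depended on the window. The ratio of means was 1.14 with NlaIII/Csp6I and 1.85 with DpnII/Csp6I in the 5 kb window, where the medians of both sides were equal in each library. It was 0.350 with NlaIII/Csp6I and 0.641 with DpnII/Csp6I in the 2 kb window, and 1.41 with NlaIII/Csp6I and 2.67 with DpnII/Csp6I in the 20 kb window. From 50 to 150 kb the H2-Q side was lower in 4 of 4 zones in each library in the 2 and 5 kb windows, and in 2 of 4 in the 20 kb window. In the 5 kb window it had ratios from 0.577 to 0.977 with NlaIII/Csp6I and from 0.457 to 0.805 with DpnII/Csp6I. With empty positions of the 5 kb window left out of both sides, it was lower in 2 of 4 zones in each library, with ratios up to 2.04 with NlaIII/Csp6I and 1.74 with DpnII/Csp6I. For these zones, the other windows and the omission of empty positions were chosen after seeing the data.

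**Figure D3:**
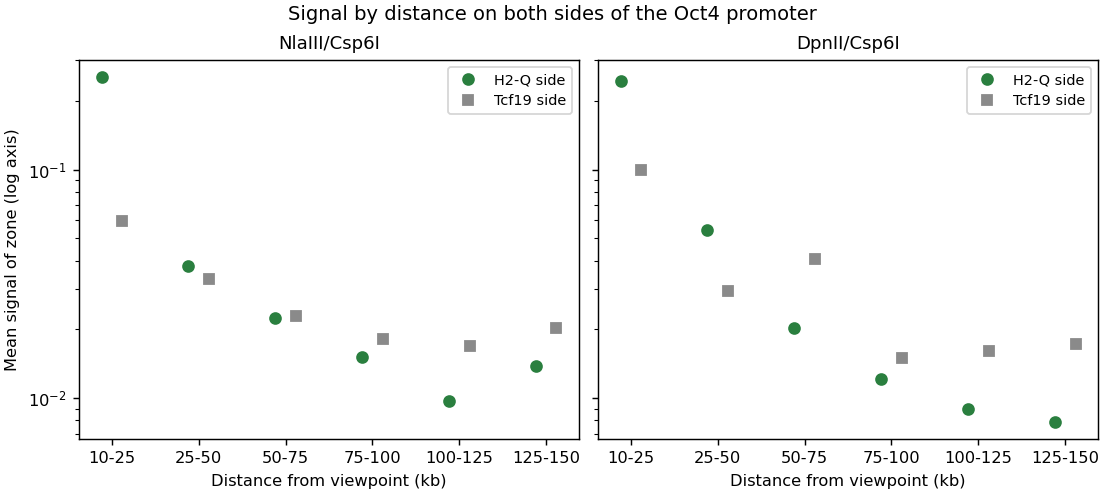
Mean signal of the 5 kb window (log axis, relative to the viewpoint) in zones of distance from the viewpoint in kb, for NlaIII/Csp6I (left) and DpnII/Csp6I (right). Circles are the H2-Q side and squares the Tcf19 side, each 1 library with no error bar. At 10 to 25 kb the H2-Q side lies above, at 0.253 with NlaIII/Csp6I and 0.244 with DpnII/Csp6I, and from 50 to 150 kb it lies below in both libraries, in this window and with empty positions included.

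Over the distances reached on both flanks, 10 to 153 kb, the H2-Q side held 62.9% of the signal with NlaIII/Csp6I and 58.6% with DpnII/Csp6I. In the 2 kb window its share was 58.6% with NlaIII/Csp6I and 45.1% with DpnII/Csp6I, so the direction turned with DpnII/Csp6I. At that scale 28.9% of H2-Q positions and 2.78% of Tcf19 positions were empty with NlaIII/Csp6I, and 59.9% of H2-Q positions and 17.4% of Tcf19 positions with DpnII/Csp6I. Within the H2-Q side, positions 50 kb or more away held 38.0% of the signal with NlaIII/Csp6I and 35.5% with DpnII/Csp6I, on 82.8% of the positions.

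In the 5 kb window empty positions, with a signal under 1e-09, lay on the H2-Q side alone. They made up 39 of its 232 positions (16.8%) with NlaIII/Csp6I, against 10.3% of all positions of that library. With DpnII/Csp6I they made up 64 (27.6%), against 17.0% of all positions. On the Tcf19 side 0 of 144 positions were empty in either library. In the 2 kb window 4 Tcf19 positions were empty with NlaIII/Csp6I and 25 with DpnII/Csp6I. At each empty position of the 5 kb window the higher window value was 0 too. The lowest filled value on the H2-Q side was 0.0117 with NlaIII/Csp6I and 0.00441 with DpnII/Csp6I. Filled values went lower on the Tcf19 side, to 0.00205 with NlaIII/Csp6I and 0.000175 with DpnII/Csp6I. Both libraries were empty at 36 positions (15.5%, against 9.55% of all positions), which were 92.3% of the empty positions of NlaIII/Csp6I and 56.2% of those of DpnII/Csp6I.

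Of the stretches of at least 3 positions that were empty in both libraries, the nearest to Oct4 ran from 35.584 to 35.597 Mb (14 positions). The next ran from 35.538 to 35.552 Mb (15 positions), and the farthest from 35.505 to 35.509 Mb (5 positions). A shorter gap of 2 positions at 35.616 and 35.617 Mb lay close to the far edge of the block of strong signal. The gaps lay 27 to 139 kb from the viewpoint. In each library alone the longest gap was longer, with 16 positions for NlaIII/Csp6I and 19 for DpnII/Csp6I. Across the other 19 libraries of the study the longest gap had a median of 5 positions, and it ran from 1 to 52. DpnII/Csp6I alone had gaps of 3 positions at 35.564 Mb, 6 at 35.527 Mb and 4 at 35.522 Mb. In the 20 kb window 2 of 225 H2-Q positions were empty with NlaIII/Csp6I and 6 with DpnII/Csp6I. Whether the likeness of H2-Q copies bears on the gaps was not tested.

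**Figure D4:**
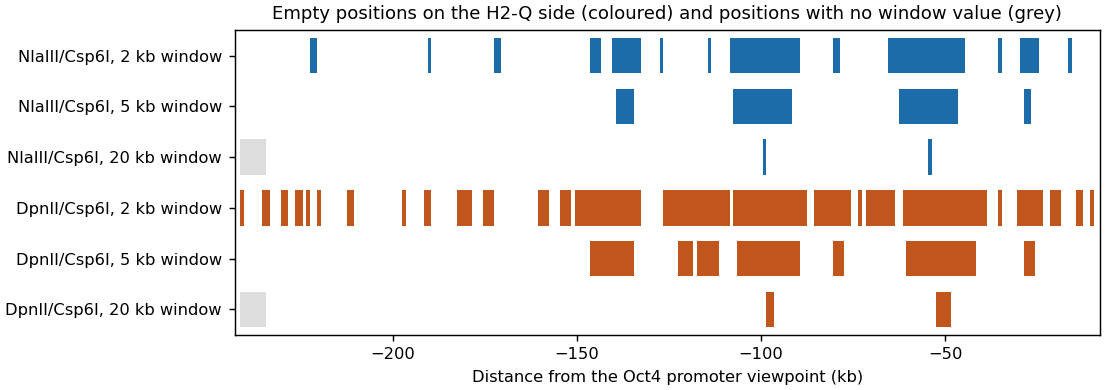
Empty positions on the H2-Q side (coloured) against distance from the viewpoint in kb, in the 2, 5 and 20 kb windows of NlaIII/Csp6I (upper 3 rows) and DpnII/Csp6I (lower 3 rows). Grey marks positions at the end of the file that have no value in the 20 kb window. In the 5 kb window both libraries have long gaps about 50 and 100 kb away, with 36 positions empty in both.

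Beyond 150 kb, towards the far H2-Q genes and H2-D1, both profiles were filled and flat in the 5 kb window. The 92 positions there ran from 0.0117 to 0.0225 with NlaIII/Csp6I, and from 0.00441 to 0.0210 with DpnII/Csp6I. They held 18.0% of the signal of the side with NlaIII/Csp6I and 19.7% with DpnII/Csp6I, on 39.7% of its positions, and no position was empty. In the 2 kb window 5 of them were empty with NlaIII/Csp6I and 28 with DpnII/Csp6I. Much of the side consists of a pair of recurring values. With NlaIII/Csp6I 77 of 232 positions stood at 0.0117 and 73 at 0.0225, together 64.7%. With DpnII/Csp6I 61 stood at 0.0210 and 45 at 0.0125, together 45.7%. In filled windows whose lower value was above 0, the higher value was 6.85 times the lower in the median with NlaIII/Csp6I and 6.76 times with DpnII/Csp6I. These medians cover the whole side. Over the 92 positions beyond 150 kb the mean lower and higher values were 0.00894 and 0.0302 with NlaIII/Csp6I. With DpnII/Csp6I they were 0.00643 and 0.0301.

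The comparison of enzyme pairs asks whether the profile depends on the fragments cut. Each library was scaled to its mean, and a pseudocount of 10% of it was added. At 182 of 232 positions (78.4%) the libraries lay within 2-fold of each other, against 78.5% of all positions, a share close to that of the whole locus. The H2-Q side reaches 241 kb and the Tcf19 side 153 kb, so these shares cover unlike distances, and shares by distance follow below. The 182 include the 36 positions empty in both libraries, where the ratio is 1 by construction. NlaIII/Csp6I was more than 2-fold higher at 37 positions (15.9%, against 13.8% of all positions), of which 28 were empty in DpnII/Csp6I. It was more than 2-fold lower at 13 (5.60%, against 7.69%), of which 3 were empty in NlaIII/Csp6I. The median log2 ratio was 0.0050 and the SD over positions 1.21. The sign of that median turned in the 20 kb window, at -0.061, and on signal as deposited, at -0.10. Among the 165 positions filled in both libraries, 88.5% lay within 2-fold and the SD was 0.74.

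**Figure D5:**
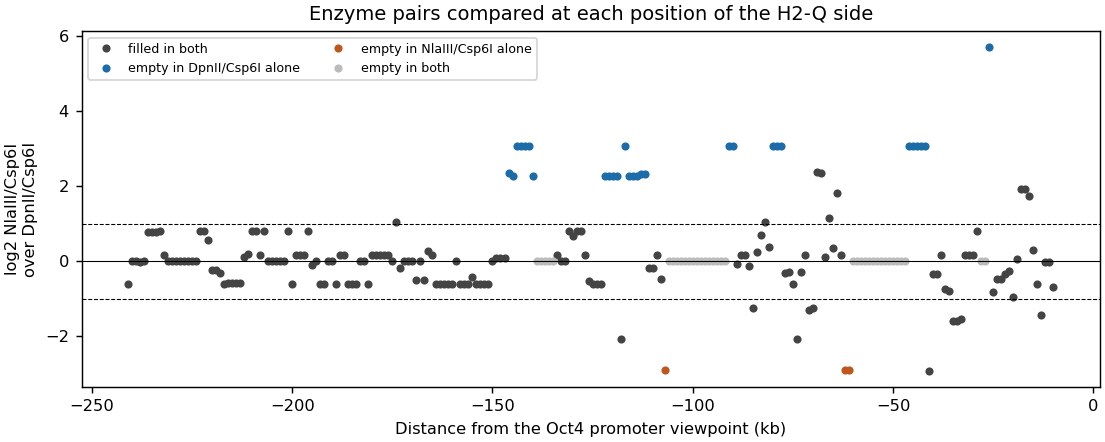
Log2 ratio of scaled signal, NlaIII/Csp6I over DpnII/Csp6I, at each of 232 positions of the H2-Q side against distance from the viewpoint in kb, with dashed lines at 2-fold. Colours mark positions empty in 1 or both libraries. Beyond 150 kb, 91 of 92 positions lie within 2-fold, and 28 of the 37 positions above the upper line are empty in DpnII/Csp6I.

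Agreement varied with distance. From 10 to 150 kb 65.0% of 140 positions lay within 2-fold, the 36 empty in both libraries included, and 55 of the 73 filled in both (75.3%). On the Tcf19 side, which reaches 153 kb and had no empty position, 113 of 144 (78.5%) did. Beyond 150 kb on the H2-Q side 91 of 92 did, where all were filled and both libraries held recurring low values. Positions filled in both libraries with NlaIII/Csp6I over 2-fold higher included 35.626 to 35.628 Mb, with a mean signal of 0.546 against 0.159 with DpnII/Csp6I, and 35.575 to 35.576 Mb, with 0.0973 against 0.0177. Those with NlaIII/Csp6I over 2-fold lower included 35.609 to 35.611 Mb, where NlaIII/Csp6I had a mean of 0.0225 and DpnII/Csp6I 0.0786, and 35.603 Mb, with 0.0117 in NlaIII/Csp6I and 0.115 in DpnII/Csp6I. With 1 library each, enzyme and library cannot be told apart.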

How the data were processed

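4C-seq signal was deposited for 21 libraries, and the 2 of the Oct4 promoter in ES cells were used, with the others read for their empty positions. Per the file names, the deposited signal is a normalized median; it is given in steps of 1000 bp for 48 running windows of 2 to 49 kb, read from the unfilled ends, with 3 columns each. The build is mm9, per the submitters' processing notes. The sources used here give no aligner, filter or read number, and do not say which quantiles the outer columns hold.

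The viewpoint was set at 35644000, the median of the highest positions (35645000 with NlaIII/Csp6I, 35643000 with DpnII/Csp6I). Positions under 10 kb from it were left out. The decay was isotonic (scikit-learn 1.9.0). Maxima are up to 5 per library, at least 20 kb apart, with mean signal in the library's top 25% and O/E above 1. Promoters were compared by alignment with free ends (Biopython 1.88). The scripts were tested on simulated profiles with a smooth decay and no empty positions. For maxima, only the planted rise nearest to the viewpoint was scored. Members, zones and rules were chosen with earlier results of these data known. Alternatives were other windows, exclusions, decays, pseudocounts and scalings.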

Additional observations from a re-analysis of the deposited data

How the results depend on the processing

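No paired analysis was possible because each group holds 1 library. There is no replicate spread to hold a change against, so the values below describe size only. They were listed where they changed by more than the SD of both libraries, left an interval that treats overlapping positions as independent (and so is too narrow), or, for counts, changed over 1.5 times. The causes were not tested. In the 2 kb window the H2-Q side's share was 58.6% with NlaIII/Csp6I and 45.1% with DpnII/Csp6I, and in the 20 kb window 62.9% with DpnII/Csp6I. Leaving out 20 kb around the viewpoint gave 56.6% with NlaIII/Csp6I. The highest maximum was picked for its O/E in these data and was read again at the same position. There it stayed above expectation in all 7 alternatives per library, an outcome that the picking favours. For NlaIII/Csp6I its log2 O/E was 0.78 at 2 kb, 0.64 at 20 kb, 0.88 without the nearest 20 kb, 0.39 with the decay on the H2-Q side alone, 2.48 with a power law and 1.11 with a pseudocount of 50%. For DpnII/Csp6I these were 0.80, 0.38, 0.76, 0.66, 1.79 and 1.00. The share of positions within 2-fold was 50.9% at 2 kb, 85.8% with a pseudocount of 50% and 88.5% without positions empty in either library. The median log2 ratio was -0.061 at 20 kb and -0.10 on signal as deposited, 0.095 without the nearest 20 kb, and 0.0062 with a pseudocount of 1%. Without empty positions, and likewise in the 20 kb window, the H2-Q side was lower in 2 of 4 zones beyond 50 kb in each library, against 4 of 4 in the 5 kb window. Both alternatives were added after the data were seen.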
